A study of Mus musculus with 120 samples.

Results

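Serpins are a family of secreted and intracellular proteins that mostly inhibit serine proteases. A protease that cuts the exposed reactive loop of a serpin is trapped in a covalent complex with it, and each serpin meets its own set of proteases. The liver makes most of the plasma members, which hold clotting, fibrinolysis, complement and neutrophil elastase in check, and several relatives carry hormones or chaperone collagen instead of inhibiting an enzyme.

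The family was chosen by symbol. Every probe set was taken whose platform annotation gave a single symbol made of Serpin, a letter from a to i and a digit. This found 56 probe sets of 40 genes among the 34,945 probe sets (18,193 genes) with a single symbol, 39 of them (30 genes) on the MOE430A array and 17 (14 genes) on the MOE430B array. Another 3 probe sets carried several serpin symbols and were left out. Of the member genes, 12 had more than 1 probe set. Most genes lay in 3 clusters, with 17 probe sets of 13 *Serpina* genes on Chromosome 12 (103616675 to 104414334 in GRCm38.p6), 12 probe sets of 7 *Serpinb* genes on Chromosome 1 and 14 probe sets of 11 *Serpinb* genes on Chromosome 13.

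Liver expression was measured in 60 F2-ob/ob mice, 31 females and 29 males, from an intercross of the C57BL/6J (B6) and BTBR strains. All mice were homozygous for the ob mutation of leptin, were 14 weeks old and had fasted for 4 h, and they had been picked from a larger panel by their genotypes. Each liver gave 1 MOE430A and 1 MOE430B array, and because the types were normalized separately, levels are compared only within a type. Genotypes at 194 markers were coded B, H and A, where H marks heterozygotes, and the sources used here do not say which founder strain a letter stands for. No founder or lean mouse was among the arrays, so every comparison was made among obese F2 mice that differed in genotype, sex and metabolic phenotype.

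The array medians ran from 6.97 to 7.09 on MOE430A and from 6.15 to 6.20 on MOE430B (log2). The hepatocyte markers *Alb*, *Ttr*, *Apoa1*, *Apoa2*, *Tat* and *Cps1* had a mean level between 13.15 and 13.57 in every mouse. Female minus male differences were 4.62 for the female transcript *Xist* (1427262_at) and -0.56 for the Y-linked *Eif2s3y* (1417210_at, log2). The mean of a mouse over 8 sex-check probe sets ran from 5.49 to 6.66 in females and from 5.50 to 6.52 in males. These probe sets go both ways. Sex was used as recorded and was not checked mouse by mouse. On MOE430A the arrays of mice 167, 474 and 559, and on MOE430B that of mouse 167, correlated less well with the others of their type. The pancreatic acinar list reached 9.21 in 1 male, mouse 343, against 7.13 to 7.47 in females. In whole liver, fewer cells of a type and less RNA per cell cannot be told apart. Every mouse was a separate animal, and the precision is set by how many mice there were.

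On MOE430A the probe sets with the highest means belonged to liver plasma serpins, and 12 members averaged 10 or more. Both probe sets of *Serpina1b* averaged 13.49 ± 0.15 (1418282_x_at) and 13.48 ± 0.15 (1451513_x_at), and *Serpina1c* averaged 13.39 ± 0.24 (SD, n = 60 mice). These genes are copies of the gene for alpha-1-antitrypsin, the main plasma inhibitor of neutrophil elastase. *Serpinc1*, which encodes antithrombin, averaged 12.74 ± 0.12, and *Serping1*, the C1 inhibitor of complement, 11.69 ± 0.24. *Serpinf1*, which encodes the non-inhibitory factor PEDF, averaged 11.81 ± 0.17 (1416168_at) and 11.01 ± 0.28 (1453724_a_at). *Serpina10*, the protein Z-dependent inhibitor of factor Xa, averaged 11.08 ± 0.40, and *Serpinf2*, alpha-2-antiplasmin, 10.98 ± 0.23. *Serpind1*, heparin cofactor II, averaged 10.76 ± 0.39. *Serpina3n*, an antichymotrypsin-related acute phase protein, averaged 10.54 ± 0.48, and *Serpina6*, corticosteroid-binding globulin, 10.38 ± 0.65. On MOE430B the highest means were those of *Serpina11* (10.04 ± 0.49), *Serpinb6e* (8.96 ± 0.13), *Serpina3i* (8.01 ± 0.09), *Serpina7* (7.64 ± 0.86) and *Serpinb9d* (7.31 ± 0.12). Probe sets differ in how strongly they bind their target, so the order describes array values and not amounts of RNA.

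The products of the intracellular *Serpinb* genes mostly act in leukocytes and epithelia. On MOE430A the Chromosome 1 cluster, with *Serpinb2*, *Serpinb5*, *Serpinb7* and *Serpinb8* among its genes, had means between 3.71 and 7.21, and the Chromosome 13 cluster between 4.17 and 8.48. On MOE430B these ranges were 2.99 to 6.38 and 4.27 to 8.96. Means under 6.0 were found for 15 of 39 members on MOE430A and for 9 of 17 on MOE430B. *Serpina5*, the protein C inhibitor, averaged 4.62 ± 0.10. *Serpinh1*, the collagen chaperone HSP47 of matrix-forming cells, averaged 8.43 ± 0.10 (1456733_x_at) and 6.82 ± 0.29 (1450843_a_at). The antichymotrypsin-related copies *Serpina3a* and *Serpina3i* averaged 7.10 ± 0.10 on MOE430A and 8.01 ± 0.09 on MOE430B. *Serpini1*, the neuroserpin of nerve cells, averaged 6.50 ± 0.11 (1416702_at) and 4.56 ± 0.09 (1448443_at) on MOE430A and 3.48 ± 0.21 on MOE430B. *Serpini2*, a pancreatic serpin, averaged 5.93 ± 0.13, and *Serpina9*, known from germinal centre B cells, 5.48 ± 0.11.

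**Figure D1:**
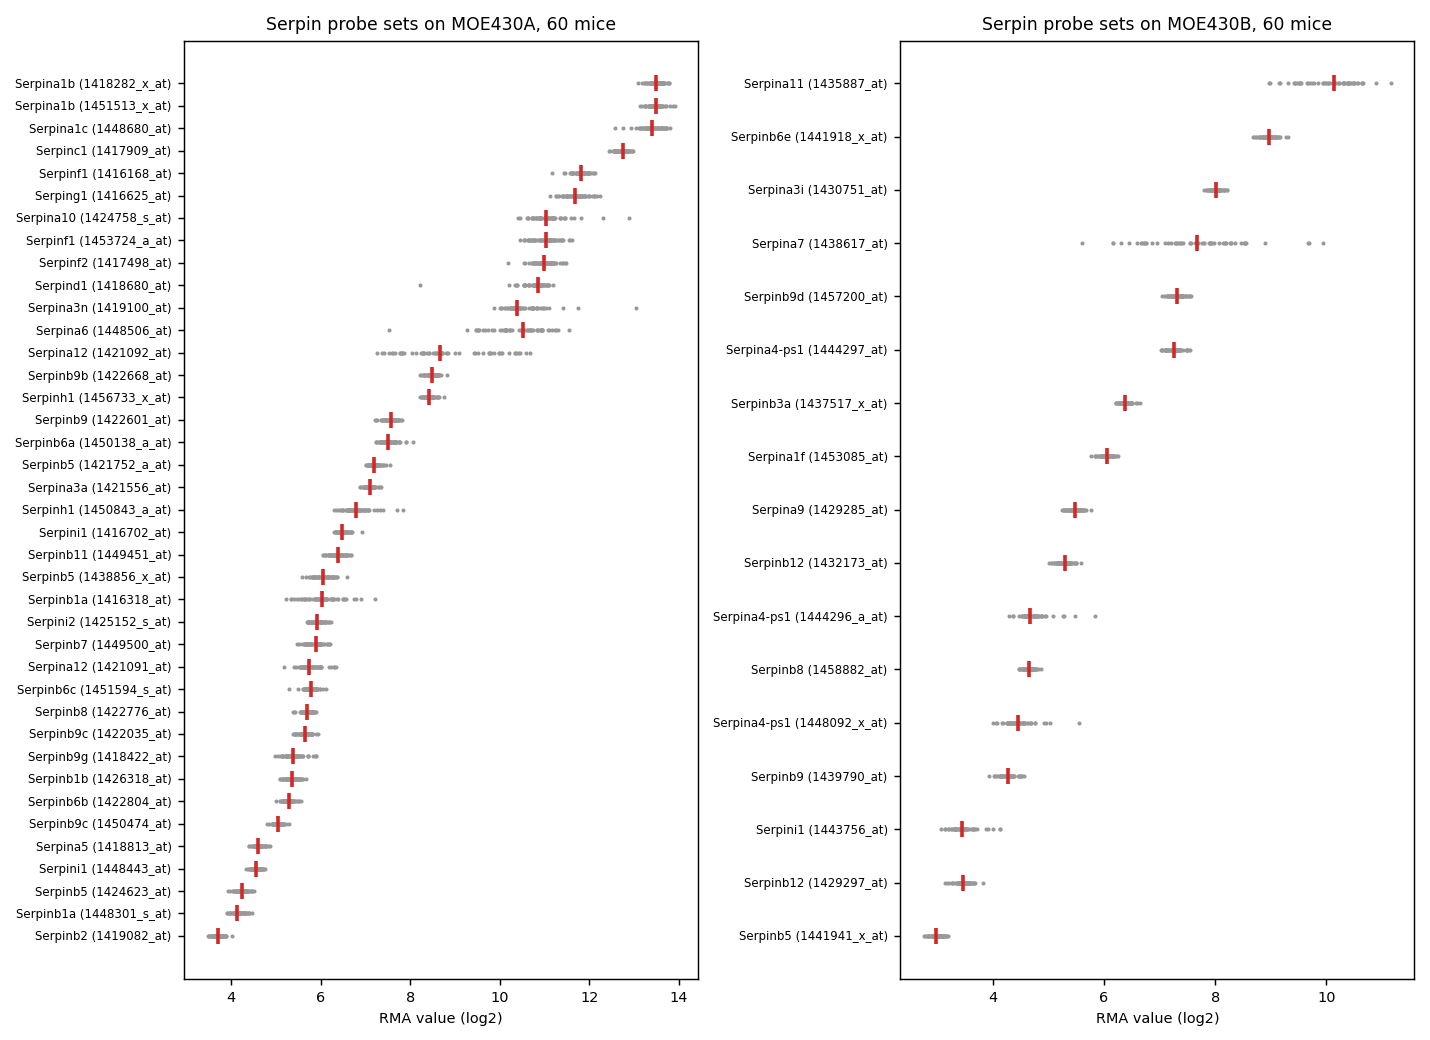
Each row is a serpin probe set and each grey point the RMA value (log2) of 1 of 60 mice, with a red tick at the median, on MOE430A (left) and MOE430B (right). Most rows are narrow, while *Serpina12* (1421092_at) runs from 7.27 to 10.67 and *Serpina7* from 5.60 to 9.94.

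Most members varied little between the mice. The median SD of the members was 0.15 on MOE430A and 0.12 on MOE430B, beside 0.13 and 0.11 over all probe sets of each type. An SD of at least 0.35 was found for 8 of the 56 members, beside 3.35% of all probe sets. Without mouse 167 there were 5, beside 3.12% of all. The widest was *Serpina12*, which encodes the serpin vaspin, with values from 7.27 to 10.67 (median 8.68, SD 0.97, 1421092_at). It was followed by *Serpina7*, thyroxine-binding globulin, an X-linked gene, with 5.60 to 9.94 (median 7.67, SD 0.86). The other 6 over all 60 mice were *Serpina6*, *Serpina11*, *Serpina3n*, *Serpina10*, *Serpinb1a* (1416318_at) and *Serpind1*.

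Linkage of each transcript to the chromosome of its own gene was tested by interval mapping, with a LOD score of 3.4 or greater called. Of the 55 members on an autosome, 5 probe sets of 4 genes (9.09%) were called, beside 3.09% of the 33,584 probe sets that name 1 autosomal gene. By the permutation test over the same probe sets, 4 members had an adjusted p under 0.05, beside 1.67% of all. These 4 belonged to *Serpina11*, *Serpina1b* and *Serpina1c*, which lie within the Chromosome 12 cluster. The median score of the members on their own chromosome, 1.10, was close to the median of all, 1.11.

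The RefSeq start regions of these 3 genes are shown because their transcripts were linked to Chromosome 12, which carries the genes. Where the gene cluster lies on the genetic map was not determined here. Each runs from 250 bases before the start to 50 after it, 5′ to 3′ on the minus strand of Chromosome 12 in GRCm38.p6, at chr12:103738140-103738439, chr12:103904901-103905200 and chr12:103989908-103990207. Capitals mark GTTAAT, the core of sites for the liver factor HNF1.
Serpina1b: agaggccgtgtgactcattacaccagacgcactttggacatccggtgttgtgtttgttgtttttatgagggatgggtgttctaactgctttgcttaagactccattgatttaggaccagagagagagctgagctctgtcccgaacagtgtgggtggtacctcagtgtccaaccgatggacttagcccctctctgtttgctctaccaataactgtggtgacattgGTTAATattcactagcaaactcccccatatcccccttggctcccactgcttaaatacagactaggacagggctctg
Serpina1c: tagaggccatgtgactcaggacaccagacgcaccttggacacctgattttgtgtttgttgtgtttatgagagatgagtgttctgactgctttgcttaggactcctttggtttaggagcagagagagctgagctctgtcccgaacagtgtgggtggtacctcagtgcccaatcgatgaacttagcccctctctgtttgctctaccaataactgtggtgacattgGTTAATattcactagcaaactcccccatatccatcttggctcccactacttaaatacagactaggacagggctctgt
Serpina11: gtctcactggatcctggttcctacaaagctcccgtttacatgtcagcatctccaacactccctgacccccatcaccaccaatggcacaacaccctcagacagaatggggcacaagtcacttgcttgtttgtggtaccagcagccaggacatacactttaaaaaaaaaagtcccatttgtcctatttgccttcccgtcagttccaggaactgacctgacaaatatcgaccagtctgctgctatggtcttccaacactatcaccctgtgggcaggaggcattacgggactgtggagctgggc

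The windows of *Serpina1b* and *Serpina1c* held the same base at 276 of 298 aligned positions (92.6%), and the 5 alpha-1-antitrypsin copies *Serpina1a* to *Serpina1e* shared between 91.7% and 98.4% pairwise. GTTAAT, read on both strands, occurred once in each of these 2 windows and not in that of *Serpina11*. It was found in 5 of the 34 member genes with a window and in 7.1% of 32,851 windows of the mouse table. TTGCNNAA, the pattern of C/EBP factors, occurred in the *Serpina1b* window alone of the 3, and in 10.8% of all windows. The copies are near-identical, and probe sets ending in x_at hold probes that can match more than 1 transcript, so which copy the *Serpina1b* and *Serpina1c* values measure is uncertain.

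*Serpina11* had the highest LOD score of the family on its own chromosome, 11.16 on Chromosome 12 at 70 cM (Haley-Knott 11.32, adjusted p = 0.00125). No permuted score on Chromosome 12 reached that of *Serpina11*, so its p is the floor set by the number of permutations. Its values ran from 9.77 to 11.16 (median 10.22) in the 15 mice with genotype B, from 9.55 to 10.66 (median 10.30) in the 30 with H, and from 8.97 to 10.15 (median 9.44) in the 15 with A. Mice with B and H had similar values, mice with A sat lower, and 7 of the 15 B mice lay at or below the highest A mouse. The means were 10.31 ± 0.37, 10.22 ± 0.31 and 9.41 ± 0.29 (SD), a difference of B minus A of 0.90 ± 0.12 (SE). The genotype accounted for 57.4% of the variance. The difference was present in both sexes, at 0.78 ± 0.12 (SE) in females and 1.08 ± 0.20 (SE) in males. Leaving out any 1 mouse left the score at 10.30 or more. The position between markers was inferred with a probability of 0.95 or more in 39 of the 60 mice.

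Both probe sets of *Serpina1b* mapped to Chromosome 12 with opposite directions. For 1451513_x_at the score was 7.39 at 65.6 cM, the position of the marker D12Mit30 (adjusted p = 0.00125). Its values ran from 13.40 to 13.91 (median 13.54) with B, from 13.33 to 13.72 (median 13.52) with H and from 13.14 to 13.47 (median 13.34) with A, and 3 of the 15 B mice lay at or below the highest A mouse. B minus A was 0.27 ± 0.05 (SE). For 1418282_x_at the score was 5.23 at 70 cM (adjusted p = 0.0263), and the values ran from 13.08 to 13.78 (median 13.34) with B, from 13.29 to 13.66 (median 13.49) with H and from 13.40 to 13.77 (median 13.63) with A. Here the B mice sat lower, and B minus A was -0.23 ± 0.06 (SE). An F test was made on the highest Haley-Knott score of the chromosome, which was 4.74 for 1418282_x_at. After Bonferroni adjustment over the chromosome and Benjamini-Hochberg adjustment over the probe sets, it gave 1418282_x_at an adjusted p of 0.0589. The direction of *Serpina1b* with genotype thus depended on the probe set, and the part of probe binding or of related copies was not tested.

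*Serpina1c* (1448680_at) followed the second direction, with a score of 6.11 at D12Mit30 (adjusted p = 0.00125). Its values ran from 12.57 to 13.51 (median 13.23) with B, from 13.14 to 13.71 (median 13.35) with H and from 13.35 to 13.81 (median 13.59) with A. The B mice were lowest, 4 of 15 of them at or above the lowest A mouse, and the H mice lay between. B minus A was -0.40 ± 0.08 (SE), with -0.39 ± 0.12 in females and -0.37 ± 0.08 in males. *Serpina11*, *Serpina1b* 1451513_x_at and *Serpina1c* share the adjusted p of 0.00125 because no permuted score reached theirs. By the F test their adjusted p were 1.8e-07, 0.00028 and 0.0043. Across the 60 mice *Serpina1c* and *Serpina1b* 1418282_x_at had an r of 0.82, and 0.74 within the genotypes of D12Mit30. The 2 *Serpina1b* probe sets had an r of -0.03 with each other and 0.52 within those genotypes.

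**Figure D2:**
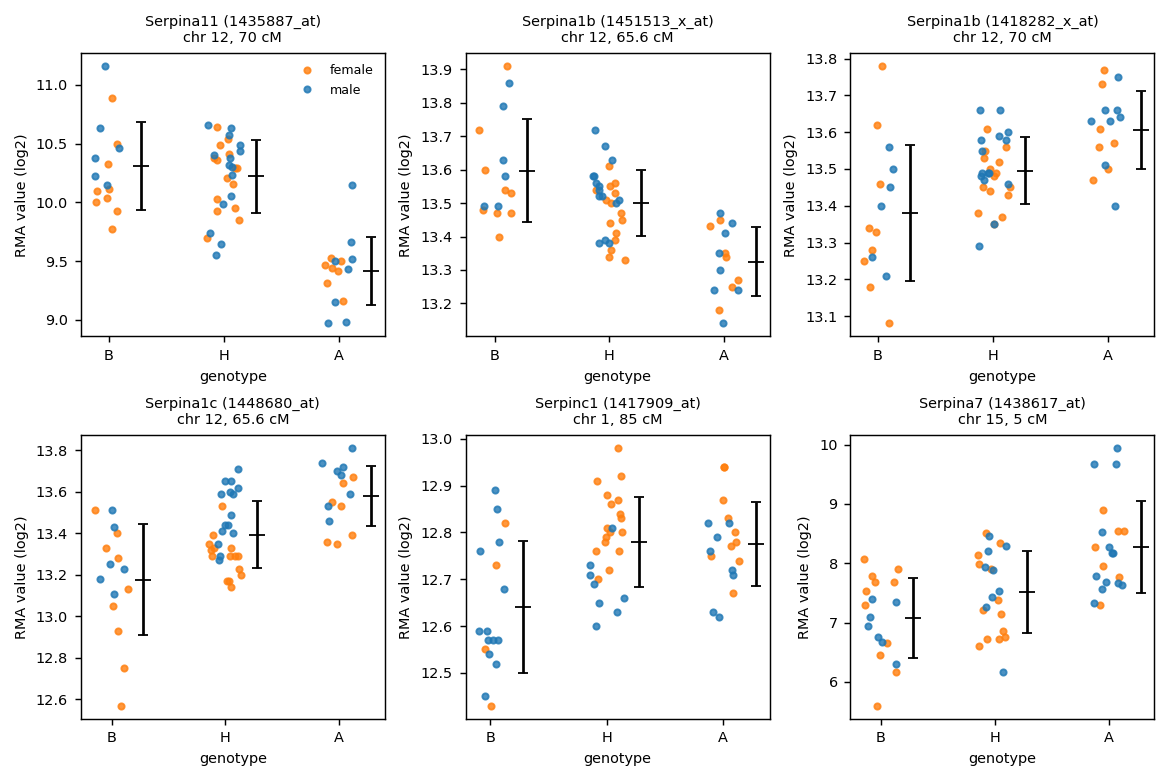
RMA values (log2) of 6 serpin probe sets by genotype at their linkage peak, with each point a mouse (females orange, males blue) and black bars for mean ± SD. *Serpina11* and *Serpina1b* 1451513_x_at are lowest with A, while *Serpina1b* 1418282_x_at, *Serpina1c* and *Serpina7* are lowest with B.

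The rest of the Chromosome 12 cluster was not called. The other 13 probe sets scored between 0.60 and 2.09 on their own chromosome, although several lie close to *Serpina11*. *Serpina12*, the widest of them, had a score of 2.04. Its values at D12Mit30 ran from 7.53 to 10.59 (median 7.82) with B, from 7.27 to 10.67 (median 8.69) with H and from 7.37 to 10.34 (median 9.62) with A, and the groups overlapped over nearly their whole range (B minus A -0.87 ± 0.34, SE). *Serpina6* had its highest score, 1.68, at 0.5 cM, far from D12Mit30. At D12Mit30 it scored 0.86, with B minus A of 0.46 ± 0.16 (SE). *Serpina10*, *Serpina3n* and *Serpina3a* had differences of -0.02 ± 0.11, -0.04 ± 0.13 and -0.04 ± 0.03 (SE). Within 1 Mb of the cluster, 0 of 43 other probe sets (25 genes) were called, beside 3.09% of all scored probe sets.

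**Figure D3:**
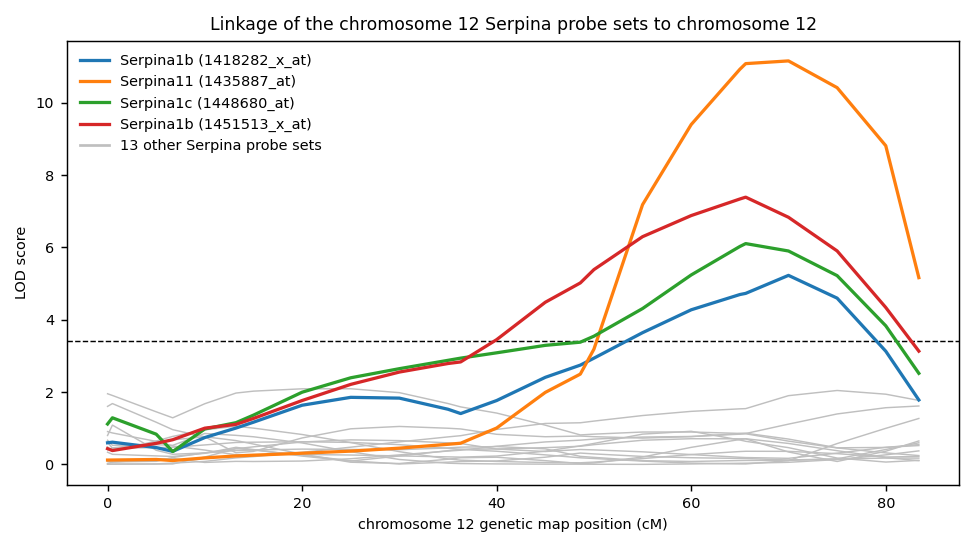
LOD score (EM interval mapping) against genetic position in cM along Chromosome 12 for the 17 *Serpina* probe sets of the cluster, with a dashed line at the threshold of 3.4. The 4 coloured curves peak at 65.6 or 70 cM, *Serpina11* highest at 11.16, while the 13 grey curves stay under 2.10 at their highest points.

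*Serpinc1* was the only called member outside Chromosome 12, with a score of 3.72 on Chromosome 1 at 85 cM and an adjusted p of 0.141. Its values ran from 12.43 to 12.89 (median 12.59) in 17 mice with B, from 12.60 to 12.98 (median 12.79) in 25 with H and from 12.62 to 12.94 (median 12.78) in 18 with A. The B mice had the lowest median, and 7 of them lay at or above the lowest A mouse (B minus A -0.13 ± 0.04, SE). The B group held 4 females and 13 males, and *Serpinc1* was also 0.11 ± 0.03 (SE, adjusted p = 0.0735) higher in females. With sex as a covariate its score was 2.42, without mouse 474 it was 3.27, and without mouse 499 it was 3.13, each under the threshold. The 12 probe sets of the Chromosome 1 *Serpinb* cluster scored at most 2.88, and the 14 of the Chromosome 13 cluster at most 2.43.

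Over the whole genome, 19 of the 56 members (33.9%) had a LOD score of 3.4 or greater, beside 15.8% of all 45,037 probe sets. By Haley-Knott regression 15 members (26.8%) passed, beside 14.9%. The 19 autosomes were scanned and the X chromosome was not. Of 18 autosomal members with such a score, 13 had their peak on a chromosome other than that of the gene. Only 5 kept a score of 3.4 or greater when any 1 mouse was left out, namely *Serpina11*, both *Serpina1b* probe sets, *Serpina1c* and *Serpina7*. The median score of the members was 2.91, beside 2.62 for all probe sets.

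*Serpina7*, whose own chromosome was not scanned, had its peak at Chromosome 15, 5 cM, with a score of 5.64. Its values ran from 5.60 to 8.07 (median 7.20) in 18 mice with B, from 6.17 to 8.51 (median 7.49) in 22 with H and from 7.29 to 9.94 (median 8.18) in 20 with A. The values went up from B over H to A, with 9 of the 18 B mice at or above the lowest A mouse. B minus A was -1.19 ± 0.24 (SE), with -1.02 ± 0.32 in females and -1.39 ± 0.29 in males. Leaving out any 1 mouse left a score of 5.16 or more.

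Several other genome-wide scores rested on single mice. On proximal Chromosome 6, the chromosome of the leptin gene, *Serpind1* scored 14.65, *Serpina3n* 6.26, *Serpina10* 5.65 and *Serpina6* 4.37 by the EM algorithm, but 0.0169, 0.306, 0.155 and 0.728 by Haley-Knott regression at the same points. Their genotype groups there were 44 or 45 mice with A, 14 to 16 with H and at most 1 with B. The H and A means of *Serpind1* were 10.84 ± 0.15 and 10.73 ± 0.44. Without mouse 167 the highest score of *Serpind1* was 2.32 and that of *Serpina6* 2.29, and without mouse 200 *Serpina3n* had 2.97 and *Serpina10* 2.46. *Serpina4-ps1*, a pseudogene, scored 5.35 (1444296_a_at) and 5.43 (1448092_x_at) farther along Chromosome 6, where the only mouse with B, mouse 416, had the highest value of both, 5.84 and 5.56. Without that mouse the scores were 2.53 and 2.79. The remaining 7 peaks, of *Serpina1f*, *Serpinb6a*, *Serpinb9c*, *Serpinb9d*, *Serpinb6e*, *Serpinh1* and the third *Serpina4-ps1* probe set, had scores between 3.41 and 4.02.

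Mouse 167, a male, had the highest value of 3 members and the lowest of 2, beside 5.08% and 3.27% of all probe sets. Mouse 474, a female, had the highest of 8 and the lowest of 5, beside 6.32% and 4.65%. The 5 lowest of mouse 474 were all liver plasma serpins, *Serpinf1* (1416168_at), *Serping1*, *Serpinf2*, *Serpinc1* and *Serpina3n*. Among its 8 highest was *Serpina1b* (1418282_x_at). Mouse 167 was at an end of 4 liver serpins. Its *Serpind1* value was 8.22, against 10.20 to 11.19 in the other mice, and its *Serpina6* value was 7.53, against 9.26 to 11.54. Its *Serpina3n* value of 13.04 and its *Serpina10* value of 12.89 were the highest, followed by 11.74 and 12.30 in mouse 200, a female. The first pair of transcripts was thus low and the second high in the same liver. Apart from mice 167 and 200, *Serpina3n* reached 11.41 and *Serpina10* 11.82. The acute phase list of 16 genes had its highest means in the same mice, 11.49 in mouse 167 and 11.45 in mouse 200, against 9.82 to 11.39 in the others. Both arrays of mouse 167 stood apart, and the part of either in these values was not tested.

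**Figure D4:**
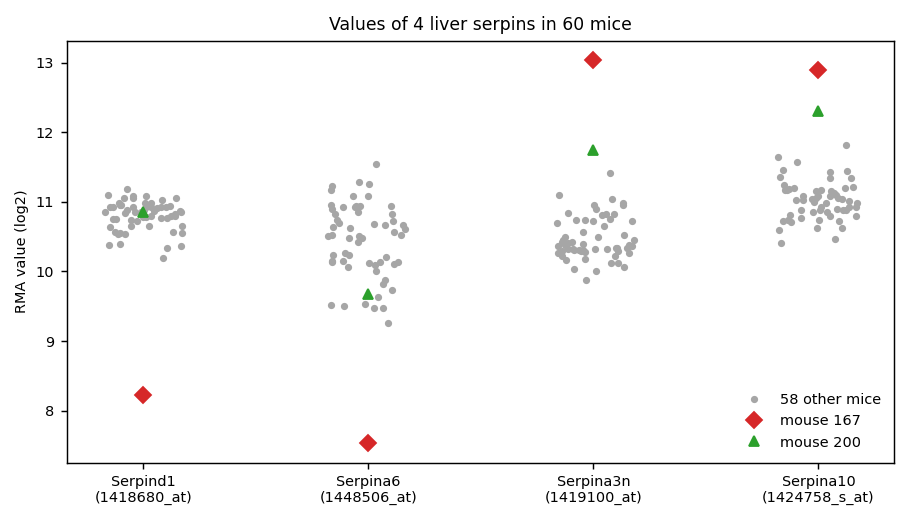
RMA values (log2) of *Serpind1*, *Serpina6*, *Serpina3n* and *Serpina10* in 60 mice, with mouse 167 as red diamonds, mouse 200 as green triangles and the 58 other mice as grey points. Mouse 167 is lowest for the first pair and highest for the second.

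These mice also shaped how the liver serpins moved together. *Serpina3n* and *Serpina10* had an r of 0.80, and 0.56 without mice 167 and 200. *Serpind1* and *Serpina3n* had an r of -0.55 with all mice and 0.08 without them. *Serpind1* and *Serpina6* kept an r of 0.70 without them, against 0.78 with all mice. On MOE430A the median r was 0.01 over the 617 pairs that shared neither gene nor cluster, which include members outside the clusters. It was 0.09 within a cluster, and 0.45 over 10 pairs of the same gene (-0.12 to 0.61). *Serpinb9b* and *Serpinb7*, of different clusters, had an r of 0.72. They are 1 pair picked from the 617, with SDs of 0.11 and 0.16, and *Serpinb7* averaged 5.87. These correlations are descriptions of the same 60 livers, whose arrays also share normalization.

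For the 3 members with the highest score on their own chromosome, the most alike transcripts outside the family lay on other chromosomes or had no symbol. *Serpina11* was closest to *Hspa4l* (r = -0.55), *Rps10* (r = 0.55) and *Tmed4* (r = 0.54) over the 60 mice. *Serpina1b* 1451513_x_at was closest to *Gpx1* (r = 0.62), an unnamed probe set (r = 0.55) and *Gsta2* (r = 0.53). *Serpina1c* was closest to an unnamed probe set (r = 0.73), *Zfp106* (r = 0.64) and *Mup3* (r = 0.64).

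Females and males differed in few serpins. By limma, 3 of the 56 members (5.36%) had an adjusted p under 0.05, beside 1.43% of all 45,037 probe sets, with 1 member higher in females (beside 1.01%) and 2 lower (beside 0.411% higher in males). *Serpina6* ran from 9.63 to 11.54 (median 10.74) in females and from 7.53 to 10.90 (median 10.13) in males, so that the ranges overlapped widely. Its difference was 0.63 ± 0.14 (SE, adjusted p = 0.0098). *Serpina1c* ran from 12.57 to 13.67 (median 13.32) in females and from 13.11 to 13.81 (median 13.51) in males, with a difference of -0.22 ± 0.06 (SE, adjusted p = 0.0401). *Serpinb9c* (1422035_at), a granzyme inhibitor relative, differed by -0.11 ± 0.03 (SE, adjusted p = 0.0359), and its mean was under 6.0. Its other probe set, 1450474_at, had a difference of 0.02 ± 0.02 (SE, adjusted p = 0.637). *Serpinf1* (1453724_a_at) had 0.23 ± 0.06 with an adjusted p of 0.0505, while its other probe set had 0.02 ± 0.05. With the first principal component of the arrays as a covariate 0 members passed (12 at an unadjusted p under 0.05), and without the 3 mice whose arrays stood apart 6 passed.

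No serpin passed the test for any of the 9 metabolic phenotypes. In 504 limma fits, 1 per member and phenotype, 0 had an adjusted p under 0.05 over all probe sets. The share of all probe sets called was 0.206% for liver triglyceride, 0.0244% for glucose at 10 weeks, 0.0133% for insulin at 10 weeks, 0.00222% for plasma triglyceride at 8 weeks and 0% for the other 5. At an unadjusted p under 0.05, 8 members (14.3%) passed for liver triglyceride, 3 with a positive and 5 with a negative slope, beside 9.75% of all. For glucose at 10 weeks there were 9 (16.1%, beside 9.48%), for body weight at 10 weeks 7 (12.5%, beside 7.69%) and for insulin at 8 weeks 0 (beside 3.76%). For the other 5 phenotypes there were 4 to 6 members each (7.14% to 10.7%), beside 5.65% of all for glucose and 4.27% for body weight at 8 weeks, 7.31% for insulin at 10 weeks, and 7.21% and 6.22% for plasma triglyceride at 8 and 10 weeks. These fits pooled the sexes without a sex term. With sex as a covariate the counts were 9 for liver triglyceride, 5 for glucose and 10 for body weight at 10 weeks. For glucose and body weight at 8 weeks they were 2 and 4. Insulin had 2 at 8 weeks and 6 at 10 weeks, and plasma triglyceride 4 and 2. After adjustment 0 passed there too.

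The smallest p of all was that of *Serpina12* (1421092_at) with liver triglyceride, which ran from 85.3 to 1014.8 mg/g (median 572.9) in 59 mice. Vaspin was described as a product of fat tissue in obese rats. Its slope was 0.44 ± 0.11 (log2 per SD of log10 triglyceride, SE, p = 0.000155, adjusted p = 0.0617), with a Pearson r of 0.46 (permutation p = 0.0003) and a Spearman rho of 0.46 (permutation p = 0.00033). Without the 2 mice farthest from the median r was 0.40. Within the sexes r was 0.17 in 31 females and 0.70 in 28 males, with slopes of 0.14 ± 0.14 and 0.76 ± 0.14 (SE, adjusted p = 0.80 and 0.0323). The female minus male difference of the slopes was -0.61 ± 0.21 (SE, p = 0.00437, adjusted p = 0.390), which did not pass over all probe sets. The pooled relation passed without the 3 mice whose arrays stood apart (adjusted p = 0.0393).

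The second *Serpina12* probe set, 1421091_at, at a mean of 5.79 ± 0.22, had an r with liver triglyceride of 0.24 (permutation p = 0.0618) and a rho of 0.25 (permutation p = 0.0532), and 0.23 without the 2 farthest mice. It had an r of -0.10 in females and 0.51 in males. Both probe sets of the gene had an r with each other of 0.50 in all mice, 0.01 in females and 0.80 in males. The female minus male difference of the slopes with liver triglyceride was -0.13 ± 0.05 (SE, p = 0.00927, adjusted p = 0.425 in limma) for 1421091_at, which did not pass over all probe sets.

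**Figure D5:**
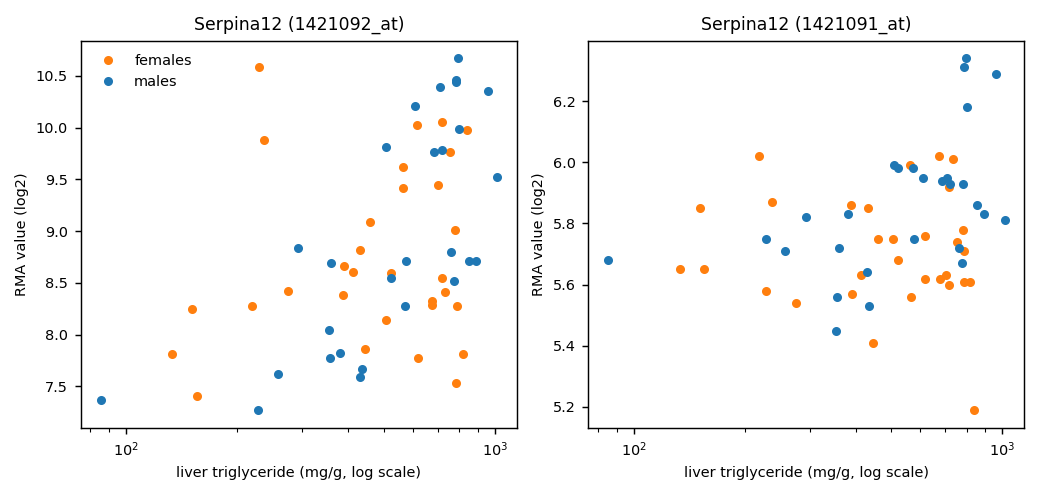
RMA values (log2) of the 2 *Serpina12* probe sets against liver triglyceride (mg/g, log axis) in 31 females (orange) and 28 males (blue). On the left r is 0.17 in females and 0.70 in males, and on the right -0.10 in females and 0.51 in males.

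Other relations were weaker. *Serpina7* had a slope with liver triglyceride of 0.33 ± 0.10 (SE, adjusted p = 0.149), with r = 0.40 (permutation p = 0.00167) and rho = 0.35 (permutation p = 0.00655). *Serping1* had -0.09 ± 0.03 (SE, adjusted p = 0.197), with r = -0.39 (permutation p = 0.00217) and rho = -0.37 (permutation p = 0.00434). Without the 2 farthest mice these r were 0.43 and -0.36. *Serpina12* (1421092_at) was also the member with the smallest p for insulin at 10 weeks, with 0.38 ± 0.11 (SE, adjusted p = 0.273), r = 0.39 (permutation p = 0.00275), rho = 0.35 (permutation p = 0.00853) and r = 0.31 without the 2 farthest mice. Its r was 0.41 in females and 0.46 in males.

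The smallest p for the remaining phenotypes had adjusted values of 0.299 and above. They belonged to *Serpina4-ps1* for glucose at 8 weeks (1444297_at, r = 0.29) and plasma triglyceride at 8 weeks (1444296_a_at, r = 0.45), *Serpina5* for glucose at 10 weeks (r = 0.36), *Serpinb1a* for body weight and insulin at 8 weeks (1448301_s_at, r = -0.32 and -0.25), *Serpina1c* for body weight at 10 weeks (r = -0.39) and *Serpinb6e* for plasma triglyceride at 10 weeks (r = 0.38). Their permutation p ran from 0.00081 to 0.0621 before adjustment, among 27 relations tested that way. Spearman's rho had the sign of r in each case, from -0.15 for *Serpinb1a* with insulin to 0.51 for *Serpina4-ps1* with plasma triglyceride. Without the 2 farthest mice *Serpinb1a* with insulin had an r of -0.05, and the other 6 lay between 0.26 and 0.39 in size. Within the sexes *Serpina5* had an r of 0.02 in females and 0.52 in males. *Serpinb1a* had -0.05 and -0.56 with body weight, and -0.07 and -0.37 with insulin. The rest lay between 0.18 and 0.40 in size in either sex. In limma no slope differed between the sexes at an adjusted p under 0.05. *Serpina5*, *Serpinb1a* 1448301_s_at and *Serpina4-ps1* 1444296_a_at averaged under 6.0.

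Of the proteases that serpins inhibit, all 23 listed genes were measured, with 33 probe sets. On their own chromosome 3 of 32 scored probe sets were called, *F12* (12.04), *Masp2* (4.13, 1420524_a_at) and *F11* (3.49), beside 3.09% of all. The other *Masp2* probe set, 1451759_at, scored 1.42. By limma 0 of the 33 differed between the sexes at an adjusted p under 0.05 (7 at an unadjusted p under 0.05), beside 1.43% of all, and *F7*, clotting factor VII, fell with liver triglyceride (slope -0.14 ± 0.03, SE, adjusted p = 0.0105). The 6 genes for clearance and cofactors had 15 probe sets, of which *Stab2*, a scavenger receptor, mapped to its own chromosome (4.87), and 3 of *Vldlr* were higher in females. These averaged 4.35 (1417900_a_at), 5.51 (1435893_at) and 7.43 (1438258_at). The other *Vldlr* probe sets did not pass. They had differences of 0.14 ± 0.07 (1434465_x_at, which had the highest mean, 7.69), 0.02 ± 0.03 (1442169_at) and -0.001 ± 0.03 (1451156_s_at, SE). Of the 16 acute phase genes *Apcs* (7.54) and *Saa4* (3.45, 1419318_at) mapped to their own chromosomes. The other *Saa4* probe set, 1419319_at, scored 1.27. By limma 0 of 25 acute phase probe sets differed between the sexes (4 at an unadjusted p under 0.05). Of 13 listed regulators 12 were measured, with 39 probe sets, of which 0 reached the score on their own chromosome. By limma 1 probe set of *Hnf4a*, a hepatocyte transcription factor, was 0.31 ± 0.08 higher in females (1421983_s_at, SE, adjusted p = 0.0391). The other *Hnf4a* probe sets did not pass. They had differences of 0.14 ± 0.06 (1427000_at), 0.16 ± 0.05 (1450447_at) and -0.04 ± 0.05 (1427001_s_at, which had the highest mean, 11.62).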

How the data were processed

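Liver RNA of 60 F2-ob/ob mice was hybridised to MOE430A and MOE430B arrays. The authors read cell intensities in MAS5 and ran RMA on each array type, which gave the deposited log2 values. The labels name no array batch. With control probe sets removed (64 per type), 45,037 remained, the 100 present on both types being taken from MOE430A. Phenotypes and genotype calls entered as deposited, with insulin and triglycerides turned to log10. RT-PCR columns of the same table and a further genotype table were not used here.

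Serpins were named from the platform annotation, and start regions came from RefSeq (GRCm38.p6). From 194 markers (6.88% of calls missing, mean interval 10.3 cM), genotype probabilities were computed at markers and 5-cM steps (Haldane map function, error rate 0.0001). Probe sets were scanned by EM interval mapping in Python 3.11.15 (numpy 2.4.6, scipy 1.17.1, pandas 2.3.3, numba 0.67.0), as the authors did with R/qtl, at their LOD of 3.4. Adjusted p on the own chromosome compared Haley-Knott scores with 100 permutations of the mice, pooled per chromosome, by Benjamini-Hochberg over 33,584 probe sets. Genotype groups hold each mouse at its most likely genotype. Sex and each phenotype were fitted without covariates by limma 3.58.1 in R 4.3.3 (adjusted p under 0.05 over 45,037 probe sets). Both r and rho were tested two-sided with 100,000 permutations. Windows were aligned with Biopython 1.88 and figures drawn with matplotlib 3.10.9. Both fits were checked on simulated data.

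An array stood apart where its median correlation within its type fell over 3 MAD under the median of the arrays; 57 mice had none. Alternatives varied the scan, markers, covariates, scale, LOD threshold, low-value filter, variance model and mice. The members and gene lists were chosen with earlier results of these data known. Named genes were members called on their own chromosome or for sex, the smallest p per phenotype, the highest means (10 on MOE430A, 5 on MOE430B), the liver plasma serpins, and the 3 transcripts outside the family most like each of the 3 highest own-chromosome scores.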

Additional observations from a re-analysis of the deposited data

How the results depend on the processing

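The 4 Chromosome 12 calls were kept in every alternative run, a LOD of 5.0 included. Own-chromosome calls numbered 4 to 5 when each mouse was left out, and *Serpinc1* was the call lost. Without mouse 474, and without the 3 mice whose arrays stood apart, the count was 5 with 4 shared, so another member took its place. By the F test 3 members had an adjusted p under 0.05. Genome-wide calls numbered 10 at a LOD of 5.0, 10 with normal scores (6 of them among the 19) and 15 to 22 when each mouse was left out. For sex, 5 members passed in eBayes without trend, 5 without mouse 474, 6 without the mice whose arrays stood apart and 0 after adding principal component 1 as a covariate. *Serpinb9c* missed the threshold with normal scores (adjusted p = 0.0772) and without mouse 343 (0.0514). For liver triglyceride 1 member, *Serpina12* (1421092_at), passed with that component, in males alone, among probe sets averaging at least 6.0 and without the mice whose arrays stood apart. The filter leaves fewer probe sets to adjust over, and for the rest the cause was not tested. No paired analysis was possible because the 2 array types share mouse numbers but hold different probe sets of the same mice and were not compared. The 15 members under 6.0 on MOE430A and the 9 on MOE430B have little signal in which a change could be seen.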

Other observations

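The 3 probe sets with several serpin symbols were kept apart from the family. The 1 shared by *Serpina1e*, *Serpina1c* and *Serpina1b* (1449321_x_at), all copies of the alpha-1-antitrypsin gene, scored 5.13 on Chromosome 12 at 65.6 cM. Its values averaged 7.34 ± 0.73 with B (SD, n = 15 mice), 7.89 ± 0.33 with H (n = 30) and 8.21 ± 0.33 with A (n = 15), a difference of B minus A of -0.87 ± 0.21 (SE). The 1 shared by *Serpina1d* and *Serpina1a* (1420553_x_at) scored 2.04 at 70 cM, with 11.24 ± 0.49, 11.41 ± 0.22 and 11.54 ± 0.20 for B, H and A. Both had their lowest mean with B, as did *Serpina1c* and *Serpina1b* 1418282_x_at, whereas *Serpina1b* 1451513_x_at was lowest with A. The 1 shared by *Serpinb9h*, *Serpinb9g*, *Serpinb9e* and *Serpinb9f* (1418423_s_at) had its highest score, 1.95, on Chromosome 8.

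Mice 167 and 200, which lay at the end of several serpins, also lay at the top of *Socs3*, a gene induced by cytokines (1416576_at), chosen here after its values were seen. It had 10.50 in mouse 167 and 8.88 in mouse 200, against a median of 8.0 over the 60 mice. Other listed regulators were mixed. Counted from the highest, *Stat3* ranked 1 and 2 in these mice by 1426587_a_at and 1460700_at, but not by its other probe sets. *Il6st* ranked 1 in mouse 167 by each of its probe sets, but from 29 to 59 in mouse 200. *F7*, whose product is clotting factor VII, had 8.82 and 9.70, against a median of 9.40. Liver triglyceride was 776.7 mg/g in mouse 167 and 151.1 mg/g in mouse 200.

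Of the marker lists, the hepatocyte, Kupffer cell, stellate cell and acinar lists each held 0 probe sets that differed between the sexes in limma, with 0 at an unadjusted p under 0.05. The neutrophil and sinusoidal endothelium lists also held 0, with 1 and 2 at an unadjusted p under 0.05. Of the male liver list 2 of 4 probe sets were lower in females, *Cyp2d9* (-0.94) and *Cyp4a12a* (-1.23), and of the female liver list 1 of 2 was higher, *Sult3a1* (0.72). Of 8 probe sets that check sex, 5 differed. Over all probe sets the share that differed between the sexes was 1.43%. On their own chromosome 4 of 7 acinar probe sets reached a score of 3.4, 3 of *Prss2* and 1 of *Cpa1*, beside 3.09% of all scored probe sets. Mouse 343 had the highest level of that list.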
